A study of Mus musculus with 6 samples.

Results

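Herpud1 and 9 further genes of the endoplasmic reticulum unfolded protein response were followed in the cerebral cortex of mice lacking HtrA2, a protease that works between the membranes of mitochondria. The members are Herpud1, Hspa5, Hsp90b1, Calr, Canx, Pdia3, Pdia4, Dnajb9, Xbp1 and Sdf2l1. They were found by gene symbol: every probe set of the array that names 1 of these genes and no other was taken, which gave 23 of the 45037 probe sets tested and 10 of the 18193 genes they name. A probe set is a group of short array probes read as 1 measurement of a transcript. The samples are cortex of HtrA2 knockout mice at postnatal day 29 (3 arrays) and cortex of wild type (WT) littermates of the same age (3 arrays). The labels name no treatment, and they give neither the strain nor the kind of deletion, so a deletion in every cell and one limited to some cells cannot be told apart from them. The question the study set was which transcripts differ in the cortex without HtrA2, a region its authors describe as keeping its neurons.

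Proteins that enter the endoplasmic reticulum are folded there by chaperones and by enzymes that form disulfide bonds, and those that fail are sent back to the cytosol and degraded. When unfolded proteins pile up, sensors in the membrane (PERK, IRE1 and ATF6) switch on genes for chaperones, folding enzymes and degradation, chiefly through the transcription factors ATF6 and spliced XBP1. PERK also slows translation and raises ATF4, a transcription factor that other stress kinases share, so ATF4 targets can respond with no stress in the endoplasmic reticulum. Herpud1 encodes Herp, a membrane protein of the degradation machinery, and is known from cultured cells to respond to both routes.

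The DNA before the start of these genes holds the short motifs through which the routes are known to act, and the sequences are shown because their exact matches differ between members. Herpud1 carries ERSE-II and CARE, 4 chaperone genes carry ERSE, and the other 5 members have no exact match to the motifs searched. In the RefSeq window of 250 bases before to 50 after the annotated start of each gene (mouse build GRCm38.p6), 4 motifs were searched on both strands. They were the endoplasmic reticulum stress element ERSE (CCAAT, then 9 bases of any kind, then CCACG), the related ERSE-II (ATTGG, any 1 base, then CCACG), the XBP1 element UPRE (TGACGTGG) and the ATF4 element CARE (TGATGNAA, which reads TTNCATCA on the other strand). ATTGG is CCAAT read on the other strand, and UPRE holds CCACG read on the other strand, so these motifs share letters. All 10 members had a window. The whole Herpud1 window, at chr8:94386179-94386478 on the plus strand, is given first, 5′ to 3′, with the fixed bases of its CARE and its ERSE-II in capitals.
Herpud1: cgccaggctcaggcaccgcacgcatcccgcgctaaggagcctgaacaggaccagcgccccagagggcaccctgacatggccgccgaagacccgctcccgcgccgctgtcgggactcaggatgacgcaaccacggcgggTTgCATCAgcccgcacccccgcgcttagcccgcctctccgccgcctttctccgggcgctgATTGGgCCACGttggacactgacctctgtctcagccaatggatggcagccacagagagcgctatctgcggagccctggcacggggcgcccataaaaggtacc

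Herpud1 was the 1 member with an ERSE-II, which began 52 bases before the start, and the 1 member with a CARE, which began 112 bases before it. ERSE-II was present in 12 of 32851 windows of all genes (0.0365%) and CARE in 1304 (3.97%). ERSE was found in 4 members, Hspa5, Hsp90b1, Calr and Canx, against 39 of all windows (0.119%). UPRE was found in none of the members and in 222 of all windows (0.676%). These chaperone stretches run 20 bases to either side of the match on the strand of the gene, with the fixed bases of ERSE in capitals, and Hsp90b1 has 2 matches.
Hspa5, chr2:34772005-34772063, plus strand: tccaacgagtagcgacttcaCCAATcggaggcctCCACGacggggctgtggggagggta
Hsp90b1 distal, chr10:86705618-86705676, minus strand: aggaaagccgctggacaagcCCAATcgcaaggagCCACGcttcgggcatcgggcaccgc
Hsp90b1 proximal, chr10:86705513-86705571, minus strand: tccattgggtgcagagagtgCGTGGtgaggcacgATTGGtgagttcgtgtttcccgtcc
Calr, chr8:84847055-84847113, minus strand: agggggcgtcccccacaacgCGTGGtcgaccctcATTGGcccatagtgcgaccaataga
Canx, chr11:50325780-50325838, minus strand: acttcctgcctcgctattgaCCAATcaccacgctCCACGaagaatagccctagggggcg

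The matches in Hspa5 and Canx and the distal one in Hsp90b1 read CCAAT first, and those in Calr and the proximal one in Hsp90b1 lie on the opposite strand. Pdia3, Pdia4, Dnajb9, Xbp1 and Sdf2l1 held none of the 4 motifs, which says only that these letters are not in these windows. The same holds for the lack of ERSE in Herpud1. Its window has CCAAT, 9 bases and then CCACA, which differs from ERSE in the last letter only. Near matches were not counted in any window. The motifs were chosen with the changes of the members known, and a match is a string of letters, not a measured binding site.

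**Figure D1:**
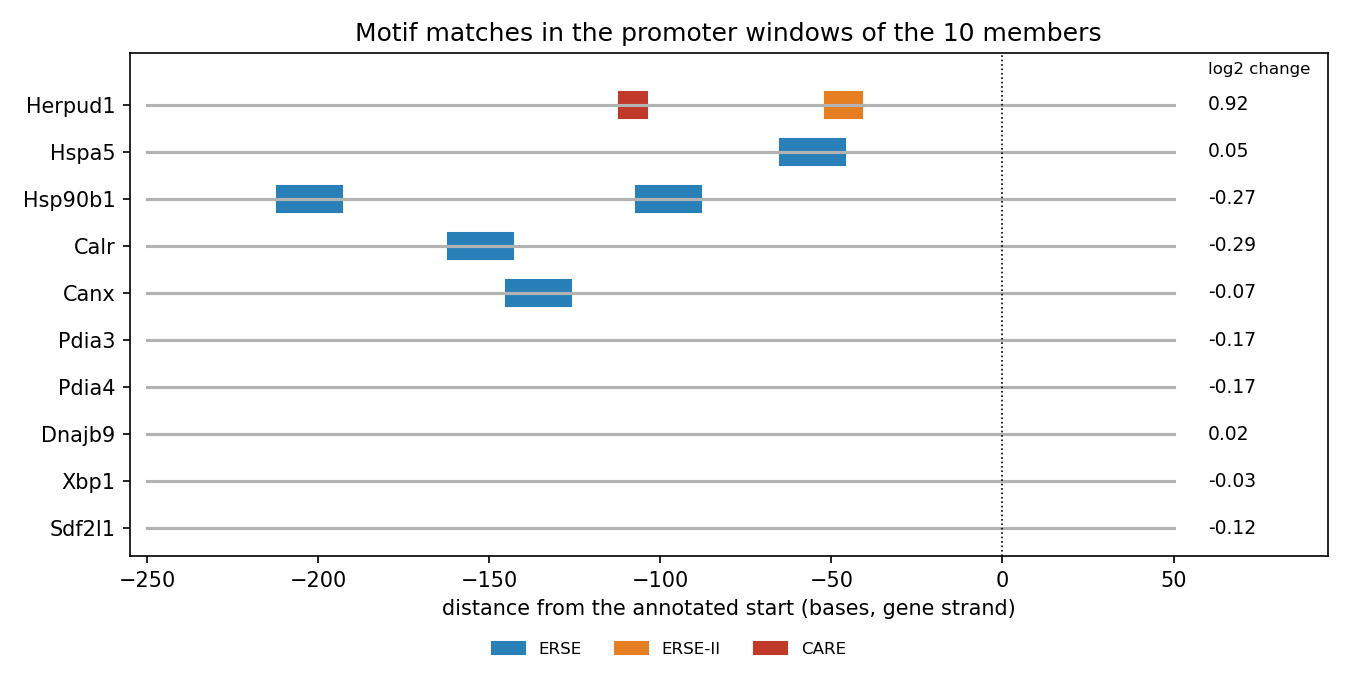
Position of exact ERSE, ERSE-II and CARE matches in the promoter window of each member, in bases from the annotated start on the gene's strand (dotted line), with the log2 fold change (HtrA2 KO minus WT) of the gene's probe set of highest mean at the right. Herpud1 (0.92) holds CARE and ERSE-II, and the 4 genes with ERSE lie between -0.29 and 0.05.

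Levels are RMA values, in log2 units, so a difference of 1 is a doubling of the signal. The ± beside a change is its standard error, SD is the spread between arrays, and n = 3 arrays in each group throughout. Each change was tested with limma's moderated test and Benjamini-Hochberg adjustment over all 45037 probe sets, and a probe set passed at an adjusted p under 0.05. The intervals are 95% intervals of the single change, not adjusted. In whole cortex, fewer cells of a type and less RNA per cell cannot be told apart. Nothing in the labels ties the 3 arrays of a group to 3 different mice, and the p-values therefore speak only of array-to-array spread, part of which may be technical.

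Some arrays stood apart before any member was looked at. Knockout replicate 2 was the knockout array farthest from its group mean at 51.8% of all probe sets, and without it 6.74% of probe sets passed the test described above, beside 1.77% with all arrays. The targeted gene, Htra2, was lower in every knockout array at 1 probe set (6.42, 7.08 and 6.45 in knockout against 8.89, 8.86 and 9.02 in WT) and higher at the other (9.35, 9.35 and 9.27 in knockout against 8.23, 8.12 and 8.28 in WT), and no source used here places these probes relative to the deletion. Y-linked genes were low in knockout replicate 3 and WT replicate 1 (means of 3 genes 4.02 and 4.03) and 7.73 to 7.96 in the other 4 arrays, so each group holds 1 array with a low Y-linked level, and the arrays of a group do not all share 1 source animal. WT replicate 2 had a high level of choroid plexus markers (mean of 6 genes 7.24, against 5.52 to 5.76 in knockout and 5.77 and 5.98 in the other WT arrays), led by the transthyretin gene Ttr at 12.86.

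Markers of cortical tissue were present, with Slc17a7, Neurod6, Tbr1, Cux2 and Nrgn all above the median level of the array's probe sets. The mean levels of marker lists for several cell types did not overlap between the groups. Past the test were 3 of 6 astrocyte, 3 of 6 microglia, 1 of 5 excitatory neuron and 1 of 5 oligodendrocyte markers. Among all genes the share was 3.30%. In the general neuron, endothelial and meningeal fibroblast lists 0 markers passed limma's test. Excitatory neuron markers averaged 10.32 to 10.45 in knockout and 10.66 to 10.72 in WT, with 3 of 5 genes lower and Neurod6 past the test. Oligodendrocyte markers averaged 11.11 to 11.19 in knockout and 11.45 to 11.57 in WT, with 5 of 5 lower and Olig2 past the test. Microglia markers averaged 8.19 to 8.35 in knockout and 8.60 to 8.82 in WT, with 6 of 6 lower and Itgam, P2ry12 and Tmem119 past the test. Endothelial markers averaged 8.33 to 8.39 in knockout and 8.13 to 8.23 in WT, with 4 of 5 higher and 0 past limma's test (2 at an unadjusted p under 0.05). Without overlap too, astrocyte markers averaged 10.57 to 10.67 in knockout and 10.73 to 10.79 in WT over 6 genes, with Gfap higher and Aqp4 and S100b lower past the test. General neuron markers averaged 12.60 to 12.68 in knockout and 12.80 to 12.82 in WT (6 genes), and meningeal fibroblast markers 8.5 to 9.0 in knockout and 8.2 to 8.5 in WT (6 genes), where the groups overlapped. The part of these differences in the results on the members was not tested.

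Herpud1 rose in the knockout cortex at both of its probe sets, and no other member passed the test. At probe set 1448185_at the level of Herpud1 was 10.99, 10.90 and 11.01 in the 3 knockout arrays, against 9.98, 10.05 and 10.09 in the 3 WT arrays. The lowest knockout array lay far above the highest WT array, and the arrays within a group differed little (SD 0.0619 in knockout and 0.0586 in WT). The change was 0.92 ± 0.07 on the log2 scale, 1.90-fold with an interval of 1.69 to 2.14 (adjusted p = 0.00347). At probe set 1435626_a_at Herpud1 had 10.62, 10.54 and 10.68 in knockout, against 9.84, 9.77 and 9.89 in WT. Its groups were apart as well, with a change of 0.78 ± 0.08, or 1.72-fold (adjusted p = 0.00528). The gene lies at chr8:94386429-94395371 (GRCm38.p6).

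Among all genes 3.30% had a probe set past the test and among all probe sets 1.77% did, while the members gave 1 of 10 genes and 2 of 23 probe sets, all from Herpud1. The median change over the 10 members was -0.10, beside 0.02 over all named genes, counting the probe set of highest mean for each gene. Of the 9 members other than Herpud1, 0 passed limma's test, 2 had an unadjusted p under 0.05 (Calr and Hsp90b1), beside 20.5% of all genes, and their changes ran from -0.29 to 0.05. Over all 21 of their probe sets the changes ran from -0.29 to 0.20.

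The rise of Herpud1 was also set against each other member within the same array. Herpud1 minus the other gene was higher in all knockout arrays than in all WT arrays for each of the 9 genes. The difference of the changes was smallest against Hspa5 (0.87) and largest against Calr (1.215). All 9 differences hold the same step of Herpud1, so they are 1 observation and not 9. An exact permutation test gave p = 0.1 for each. That is the smallest value 3 arrays against 3 can give, so the test cannot decide, and no conclusion is drawn from it.

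**Figure D2:**
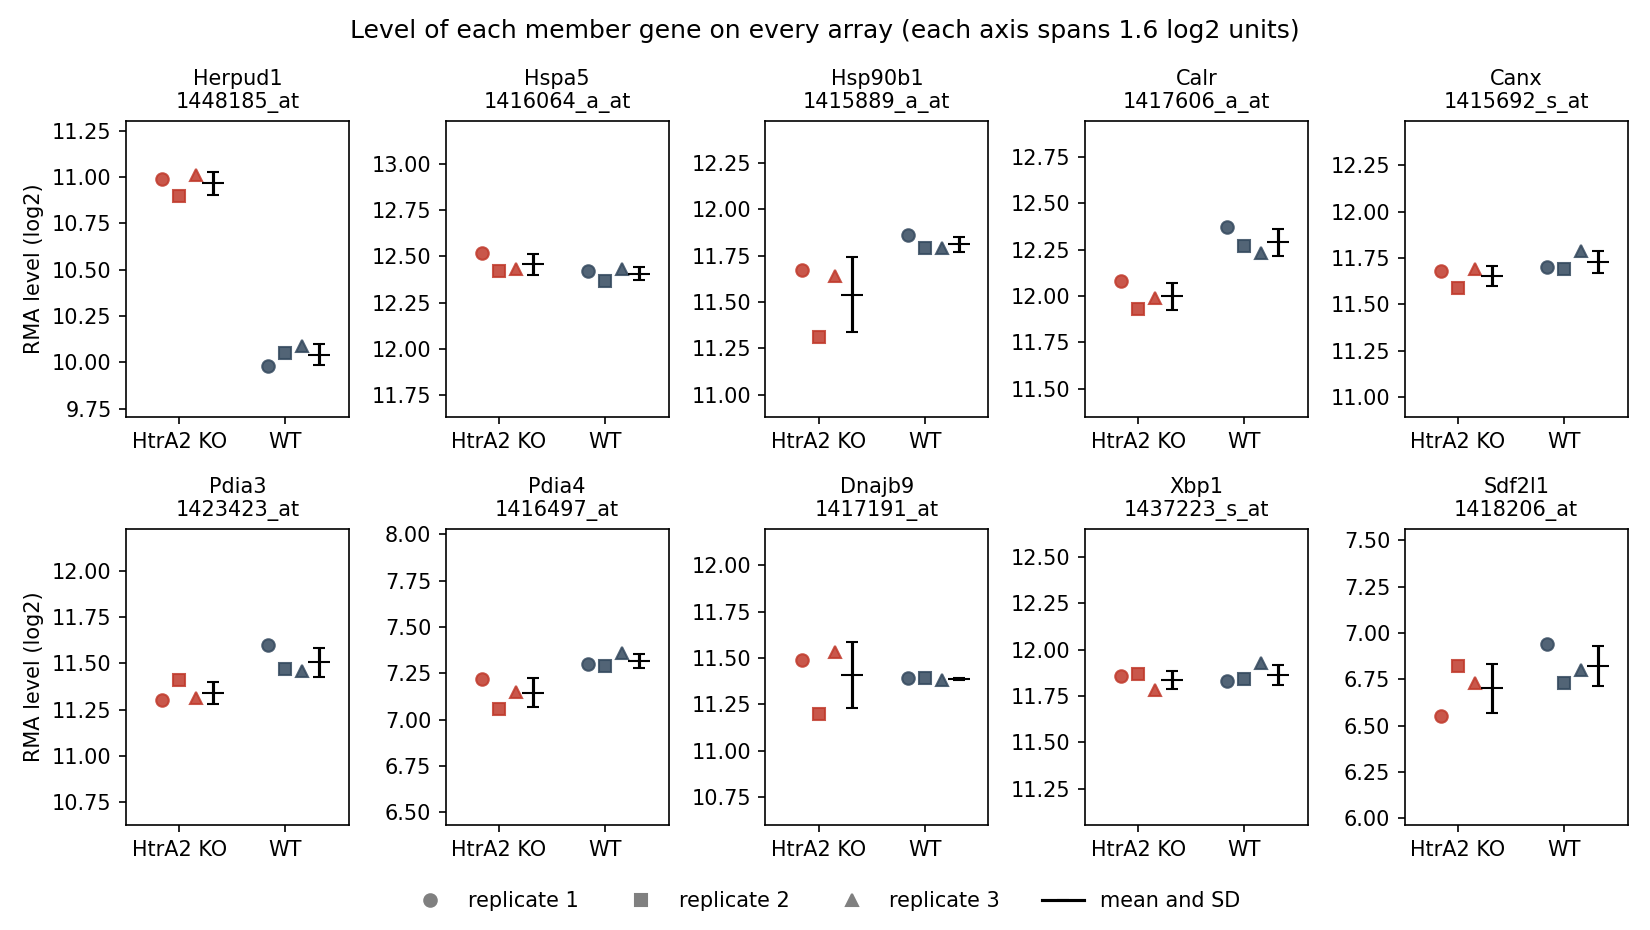
RMA level (log2) of each member at its probe set of highest mean, on the 3 HtrA2 KO arrays (left) and the 3 WT arrays (right), with the mean and SD beside each group. All vertical axes span the same distance, so the step of Herpud1, at 10.90 to 11.01 in knockout and 9.98 to 10.09 in WT, can be compared with the smaller spreads of the other genes.

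The Hsp70 and Hsp90 chaperones of the compartment came next by role. Hspa5, which encodes BiP, the chaperone that holds the stress sensors inactive, had 12.52, 12.42 and 12.43 in knockout, against 12.42, 12.37 and 12.43 in WT. The groups overlapped, and the change was 0.05 ± 0.07 with an interval of -0.11 to 0.22 (adjusted p = 0.78), so the upper bound was 1.16-fold. Its other 2 probe sets differed by 0.06 and 0.03, and without knockout replicate 2 by 0.12 and -0.09. BiP is a widely used marker of the response, and the upper bound of its change lies below the lower bound of the change of Herpud1 (0.22 for Hspa5, 0.75 for Herpud1).

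Hsp90b1, which encodes GRP94, an Hsp90 that folds secreted and membrane proteins, had 11.67, 11.31 and 11.64 in knockout, against 11.86, 11.79 and 11.79 in WT. All knockout arrays were below all WT arrays, with knockout replicate 2 lowest. The difference was -0.27 ± 0.11 and did not pass (adjusted p = 0.249), and without knockout replicate 2 it was -0.155. At the second probe set it was -0.18 ± 0.10, and there the groups overlapped.

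The lectin chaperones bind the sugar chains of glycoproteins during folding. Calr, the soluble calreticulin, had 12.08, 11.93 and 11.99 in knockout, against 12.37, 12.27 and 12.23 in WT. The groups were apart at all 3 of its probe sets, with differences of -0.29 ± 0.08, -0.27 ± 0.08 and -0.27 ± 0.07 (adjusted p = 0.111, 0.123 and 0.117). Calr thus did not pass the test, though it did so under limma-trend with robust moderation (adjusted p = 0.0249) and with array weights (adjusted p = 0.0465). The x in the names of 2 of its probe sets marks probes that can match other transcripts.

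Canx, the membrane-bound calnexin, had 11.68, 11.59 and 11.69 in knockout, against 11.70, 11.69 and 11.79 in WT. The groups overlapped at this probe set (-0.07 ± 0.07, adjusted p = 0.698). Its other probe sets disagreed in sign, with -0.15 ± 0.08 at 1422845_at and 0.13 ± 0.13 at 1428935_at. At 1428935_at knockout replicate 2 stood at 8.32 beside 8.76 and 8.75 in the other knockout arrays, and without it the difference was 0.28 (adjusted p = 0.0688).

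The protein disulfide isomerases form and rearrange disulfide bonds. Pdia3, also called ERp57, which works with calnexin and calreticulin, had 11.30, 11.41 and 11.31 in knockout, against 11.60, 11.47 and 11.46 in WT. The knockout arrays were lower without overlap, by -0.17 ± 0.08 (adjusted p = 0.323), and so they were at the second probe set (-0.21 ± 0.08, adjusted p = 0.207). Pdia4, also called ERp72, had 7.22, 7.06 and 7.15 in knockout, against 7.30, 7.29 and 7.36 in WT. This difference, -0.17 ± 0.07, was without overlap but did not pass (adjusted p = 0.298). The other Pdia4 probe set lay below the median level of the array, with 4.55, 5.38 and 4.65 in knockout against 4.77, 4.58 and 4.64 in WT, and its difference was 0.195 ± 0.20, with only knockout replicate 2 above every WT array and a difference of -0.07 without it.

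The remaining members are a co-chaperone, a stromal cell derived factor-like protein and a transcription factor. Dnajb9, also called ERdj4, a J protein that recruits BiP and a target of spliced XBP1, had 11.49, 11.20 and 11.53 in knockout, against 11.39, 11.39 and 11.38 in WT. Knockout replicate 2 lay below every WT array and the other knockout arrays above them, and the change was 0.02 ± 0.10 (adjusted p = 0.945). Without knockout replicate 2 it was 0.12 (adjusted p = 0.289). Sdf2l1, which works with J proteins and BiP, had 6.55, 6.82 and 6.73 in knockout, against 6.94, 6.73 and 6.80 in WT, with overlap and a difference of -0.12 ± 0.10 (adjusted p = 0.606). Without knockout replicate 1 the Sdf2l1 difference was -0.046, and without WT replicate 1 it was -0.061.

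Xbp1 encodes the transcription factor that IRE1 activates by splicing its mRNA, so its total transcript is not a measure of that splicing. It had 11.86, 11.87 and 11.78 in knockout, against 11.83, 11.84 and 11.93 in WT, and these overlapped (-0.03 ± 0.07, adjusted p = 0.905). Its other 3 probe sets differed by -0.115, 0.01 and -0.19. The first of these rests on knockout replicate 2 (9.99, beside 10.30 and 10.34 in the other knockout arrays) and was -0.004 without it. At 1420886_a_at, the last of these, the knockout arrays were lower without overlap (11.34, 11.05 and 11.26 against 11.46, 11.39 and 11.36 in WT) but did not pass (adjusted p = 0.361), and the difference was -0.10 without knockout replicate 2. No source used here places the probes relative to the spliced intron.

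**Figure D3:**
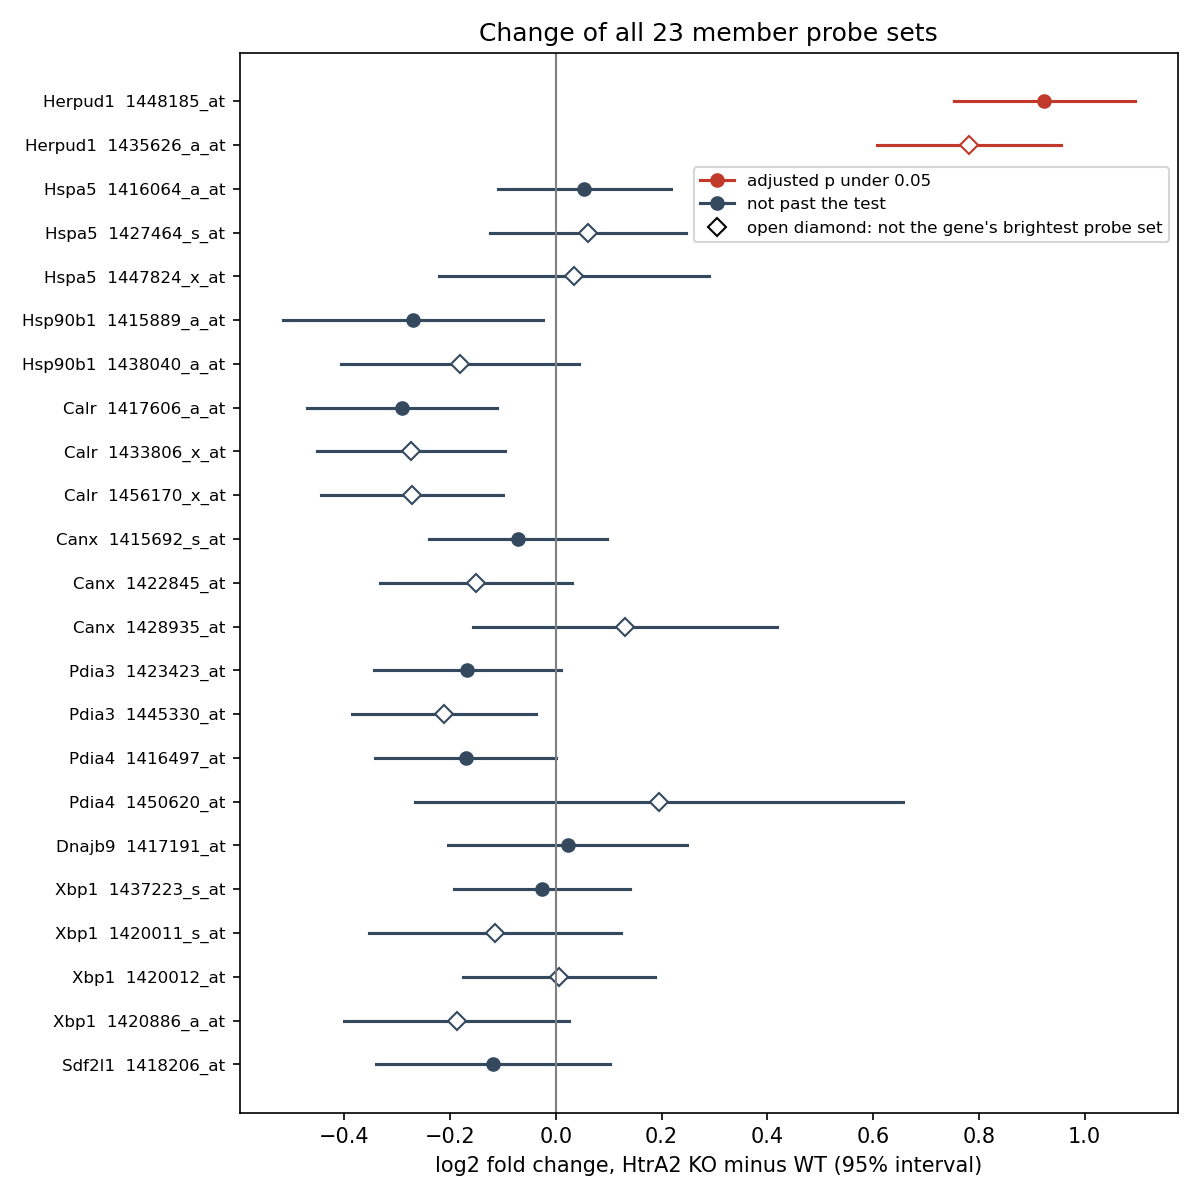
Log2 fold change (HtrA2 KO minus WT) of all 23 member probe sets with its 95% interval, in red where the adjusted p is under 0.05. Filled circles are the probe set of highest mean for each gene and open diamonds the others, and only the 2 Herpud1 probe sets (0.92 and 0.78) are past the test.

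Taken by side, the groups did not overlap at 11 of the 23 member probe sets. The knockout was higher at 2 of 23, both of Herpud1, beside 11.6% of all probe sets, and lower at 9 of 23, beside 11.6% of all probe sets. These 9 belong to Calr (3), Pdia3 (2), Hsp90b1, Canx, Pdia4 and Xbp1 (1 each), and probe sets of 1 gene share its transcript, so they are not separate observations. By gene, 4 of 10 members were lower without overlap at their probe set of highest mean (Calr, Hsp90b1, Pdia3 and Pdia4), beside 12.8% of all genes, and 7 of the 10 changes were negative, beside 45.1% of all genes. None of these differences passed the test on their own, and no test was made over the members together.

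Knockout replicate 2 and WT replicate 1 stood apart among the members. Knockout replicate 2 was the knockout array farthest from the group mean at 14 of 23 member probe sets (60.9%), beside 51.8% of all probe sets. It was the lowest of the 6 arrays at 9 of 23 (39.1%), beside 21.2% of all probe sets. WT replicate 1 was the highest of the 6 arrays at 11 of 23 (47.8%), beside 14.8% of all probe sets, and the WT array farthest from the group mean at 56.5%, beside 32.2%. Without WT replicate 1 the differences of Calr, Hsp90b1, Pdia3 and Pdia4 were -0.25, -0.25, -0.12 and -0.18. The change of Herpud1 was 0.89 without WT replicate 1 (adjusted p = 0.0332) and 0.96 without knockout replicate 2 (adjusted p = 0.00217). It was 0.93 without WT replicate 2 (adjusted p = 0.0368), the omission that gave the highest adjusted p. The Herpud1 probe set 1435626_a_at just missed the threshold without WT replicate 2 (0.75, adjusted p = 0.0512).

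Other genes of the same compartment were read from 4 lists with 64 measured genes. In all, 1 of these 64 genes rose past the test and 0 fell (1.56%, beside 3.30% of all genes), and their median change was 0.02, as was that of all genes to this precision. At their probe set of highest mean, 19 were higher in knockout without overlap (29.7%, beside 15.6% of all genes). Lower without overlap were 9 (14.1%, beside 12.8%). The 1 gene past the test was Ufd1, which helps the ATPase VCP pull ubiquitinated proteins out of the membrane. It had 10.41, 10.42 and 10.52 in knockout, against 9.92, 9.87 and 9.69 in WT, a rise of 0.62 ± 0.09 (adjusted p = 0.0181), and its other probe set rose by 0.52 ± 0.09 (adjusted p = 0.031). It was past the test without knockout replicate 1 or 2, but not without knockout replicate 3 or without any 1 of the 3 WT arrays, where the count of called genes in the 4 lists was 0.

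Degradation genes, the machinery in which Herp works, had 1 of 19 members past the test, Ufd1. The ubiquitin ligase Syvn1, also called HRD1, to which Herp binds, and its partner Sel1l differed by 0.11 and -0.01. The related gene Herpud2 differed by -0.05. Beside Ufd1, 4 genes had an unadjusted p under 0.05 without passing. With Ufd1 they made 26.3% of the list, beside 20.5% of all genes. Derl1, Derl2 and Erlec1 differed by 0.24, 0.22 and 0.25, and Edem3, which trims sugar chains of misfolded proteins, by -0.25. In all 12 of the 19 changes were positive and 7 negative (36.8% negative, beside 45.1% of all genes), and the median of the list was 0.06.

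Among 20 other chaperones and folding enzymes 0 passed limma's test, 3 had an unadjusted p under 0.05 (beside 20.5% of all genes, which holds for the next lists too) and the median was -0.05. Sil1, the exchange factor of BiP, differed by 0.34 ± 0.07 (adjusted p = 0.0649) and Pdia5 by -0.32 ± 0.09 (adjusted p = 0.122), and Ero1a, an oxidase that recharges disulfide isomerases, was the third at 0.22. Hyou1, Dnajc3, Creld2 and Manf, which rise with the response in many cells, differed by -0.10, -0.04, -0.16 and -0.155, while P4hb and Dnajb11 differed by 0.11 and 0.05. In all 8 of the 20 changes were positive. The sensors and transducers had 0 of 10 past the test (2 at an unadjusted p under 0.05, median 0.10). There Eif2ak3, which encodes PERK, Ern1, which encodes IRE1, and Atf6 differed by 0.15, 0.14 and -0.02. Crebrf and the protease gene Mbtps1 differed by 0.50 ± 0.12 and 0.24 ± 0.08 (adjusted p = 0.0831 and 0.168). The other probe sets of Crebrf differed by 0.39 and 0.35, but those of Mbtps1 by -0.27 and -0.05, with overlap. Translocon and signal peptidase genes had 0 of 15 past the test (1 at an unadjusted p under 0.05, median 0.004). Ssr3 differed by 0.37 ± 0.08 and Sec63 by 0.18 ± 0.08 (adjusted p = 0.0715 and 0.315). The second Ssr3 probe set differed by 0.37 too, but the other Sec63 probe sets by -0.02, 0.03, 0.03 and -0.01, all with overlap.

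The arm of the response that runs through ATF4 and CHOP was read beside these. Of its 10 genes 7 rose and 0 fell (70.0%, beside 3.30% of all genes), with a median of 0.55, beside 0.02 over all genes. Ddit3, Chac1, Asns, Sesn2, Trib3, Atf3 and Ppp1r15a were the 7. Atf4, Cebpb and Nupr1 differed by 0.32, 0.48 and 0.44 and did not pass (adjusted p = 0.147, 0.132 and 0.461). Ddit3, which encodes CHOP, had 10.72, 10.71 and 10.64 in knockout, against 8.82, 8.85 and 8.83 in WT, while its second, dim probe set differed by -0.01. That list was known to rise from earlier results of these data and is no independent support.

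**Figure D4:**
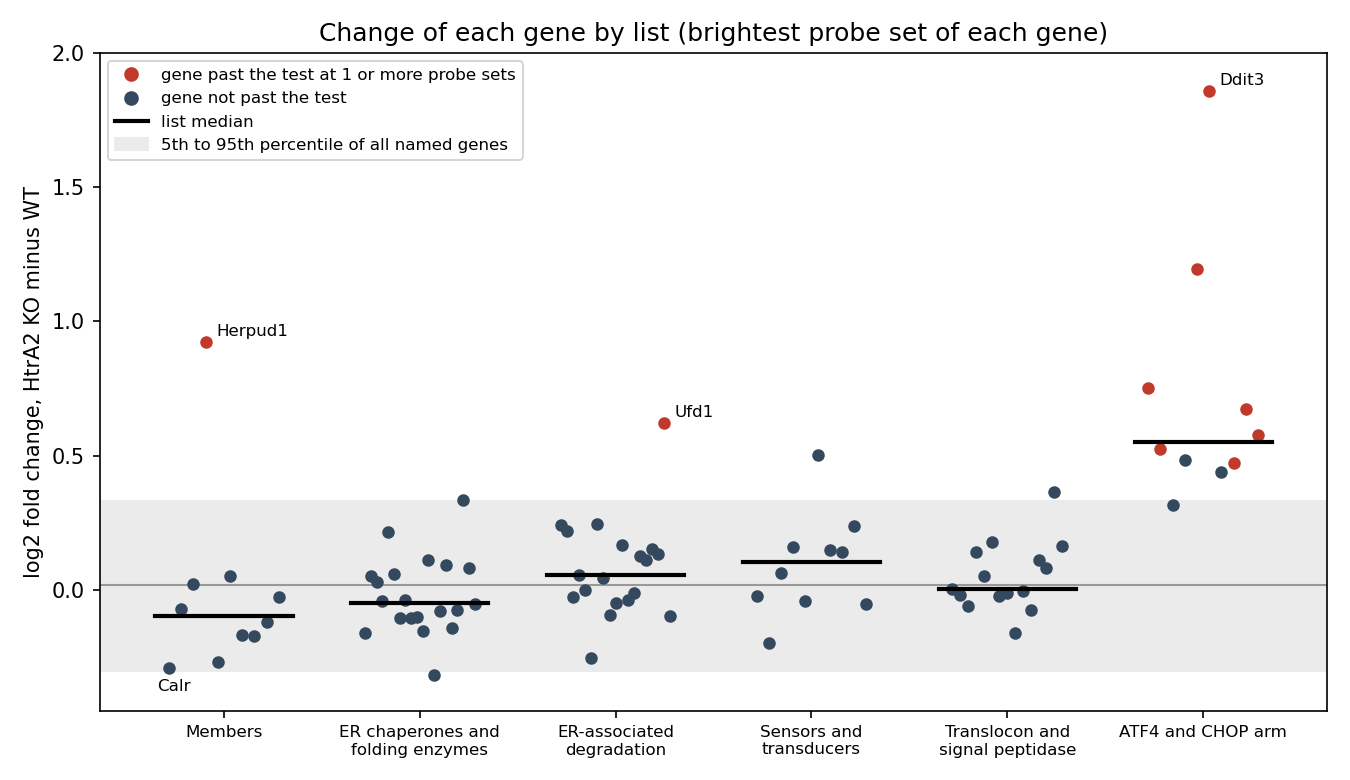
Log2 fold change (HtrA2 KO minus WT) of each gene at its probe set of highest mean, by list, in red where a probe set of the gene is past the test. Black bars are list medians (-0.10 for the members, -0.05, 0.06, 0.10 and 0.004 for the 4 other endoplasmic reticulum lists and 0.55 for the ATF4 and CHOP arm), and the grey band spans the 5th to 95th percentile of all named genes (-0.30 to 0.33).

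The genes that share the promoter motifs were counted in the same way, as a description without a test. Over all genes with a window and a measurement, 475 of 14452 passed the test (3.29%). Of the 20 genes with ERSE 0 passed limma's test (3 at an unadjusted p under 0.05, beside 20.6% of all genes with a window) and their median change was 0.01. These include, beside the 4 members, Creld2, Dnajc3, Ero1b, Pdia6, Derl3 and Syvn1 from the endoplasmic reticulum lists, with changes from -0.16 to 0.11. Of the 9 genes with ERSE-II 2 rose, Herpud1 and Krtcap2 (0.39), a subunit of the enzyme that attaches sugar chains to new proteins, while the chaperone gene Dnajb11, which has the motif too, differed by 0.05. At an unadjusted p under 0.05 were 4 of the 9 (44.4%). Of the 468 genes with CARE 17 rose and 10 fell (5.77% in all). At an unadjusted p under 0.05 the share of CARE genes was 19.9%, beside 20.6% of all genes with a window. Their median change was 0.024, beside 0.019. CARE was found in 5 of the 10 genes of the ATF4 and CHOP arm, Asns, Atf3, Chac1, Nupr1 and Trib3, of which all but Nupr1 rose. Of the 5 arm genes without CARE in the window, Ddit3, Sesn2 and Ppp1r15a rose, and Atf4 and Cebpb did not pass the test.

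The 5 genes whose profile over the 6 arrays was most like that of Herpud1 were Dbp, Phf10, Psph, Asns and 5430416N02Rik. Likeness was the root mean square difference between the profiles after each was centred on its own mean, and it was 0.0432, 0.0486, 0.0849, 0.0993 and 0.101 log2 units, beside 0.083 for the second probe set of Herpud1. Dbp is a transcription factor of the circadian output, Psph makes serine and Asns makes asparagine. Dbp had 11.37, 11.30 and 11.35 in knockout, against 10.25, 10.37 and 10.46 in WT. All 5 rose, by 0.75 to 0.98, which the measure favours since Herpud1 has such a step itself, and 0 of the other 9 members were among them.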

How the data were processed

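The deposited table holds RMA values on a log2 scale for 45101 probe sets on 6 arrays. Per the submitters' processing notes the tool was RMA, with no version given (it corrects background, normalizes by quantiles and summarises probes), and base 2 was taken from the range of the values. Quantile normalization hides a shift shared by most genes, and RMA compresses differences of dim probe sets. Precision is limited by the number of arrays, 3 in each group. After removal of 64 control probe sets, 45037 were tested with no filter. The platform annotation gave 34945 of them 1 gene symbol, 932 several and 9160 none. Symbols were updated by gene ID through RefSeq (GRCm38.p6; 34741 matched), and promoter windows are RefSeq's.

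Knockout minus WT was fitted with limma 3.58.1 in R 4.3.3 (lmFit and eBayes, two-sided, group as the only term). The fit was tested on simulated data. A gene counted as called if at least 1 probe set naming it alone passed, and was otherwise represented by its probe set of highest mean. Named genes were all members, the called genes of each list or else its 2 of smallest p, Htra2 and the 5 most like Herpud1, and genes outside this rule (Syvn1, Sel1l, Herpud2, Derl1, Derl2, Erlec1, Edem3, Ero1a, P4hb, Dnajb11, Hyou1, Dnajc3, Creld2, Manf, Eif2ak3, Ern1, Atf6 and those named for a motif) were added after their values were seen. The members, lists and motifs were chosen with earlier results of these data known. Replicate numbers were not taken as pairs: same-numbered arrays of the 2 groups had deviations that correlated at -0.20, -0.04 and -0.17.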

Additional observations from a re-analysis of the deposited data

How the results depend on the processing

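The rise of Herpud1 kept its direction and its call in all 14 alternative fits (0.89 to 0.96, adjusted p from 0.00022 to 0.0368), and in the 6 that left out 1 array (without replicate 1, 2 or 3 of either group) it ran from 0.89 to 0.96. With the replicate block it was 0.92 (adjusted p = 0.0228). The count of members past the test was 1 in every fit but limma-trend with robust moderation and array weights, where Calr made it 2 (changes of -0.29 and -0.27). It was 1 at adjusted p under 0.1 and under 0.01 too. The count among the 64 other genes, 1 as reported, was 6 at adjusted p under 0.1, 0 at adjusted p under 0.01, 6 with only probe sets above the median level, 5 with limma-trend, 3 with repeated quantile normalization, 13 with array weights, 0 with the replicate block, 3 with 1 probe set per gene, and between 0 and 7 when 1 array was left out. Counts over all probe sets moved likewise, from 65 without WT replicate 2 to 3037 without knockout replicate 2 and 4205 with array weights, beside 796. With 1 array left out Dnajb9 ran from -0.040 to 0.124, its sign turning without knockout replicate 1 (-0.019) or 3 (-0.040), and Xbp1 from -0.044 to 0.005, its sign turning without knockout replicate 3 (0.002) or WT replicate 3 (0.005). Neither passed the test in any of these fits, and the cause was not tested. The other 8 members kept their sign in all 14.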
